A study of Homo sapiens with 8 samples.

Results

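hsa-miR-183-5p, hsa-miR-96-5p and hsa-miR-182-5p are the guide arms of 3 hairpins that are encoded side by side on human chromosome 7 and are known as the miR-183/96/182 cluster. They were chosen by name, as 3 of the 1887 human miRNAs on the array, and not by a rule on measured values. Earlier results of these data were known when they were chosen. The arrays read the RNA of PC-3 cells, an established prostate cancer cell line of human origin, that had been kept for 24 h with DMSO alone, with luteolin, with gefitinib or with the pair of drugs, each drug at 60 µM. Luteolin is a plant flavonoid, and gefitinib inhibits the kinase of the epidermal growth factor receptor. DMSO was the solvent of both drugs, so every group received it. There were 2 arrays for each treatment, labelled as biological replicates. The study used the arrays to ask whether miRNAs have a part in the growth inhibition that follows these drugs.

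The 3 hairpins are read from a single primary transcript. Each hairpin is cut to a short duplex, the guide arm of which is kept by an Argonaute protein while the opposite strand, the passenger arm, is mostly degraded. Bases 2 to 8 of a mature miRNA, the seed, pair with target messenger RNAs and largely set which messages are repressed. The cluster is known for its high expression in sensory organs and for its raised levels in prostate tumors relative to normal prostate tissue, and FOXO1, a transcription factor that restrains proliferation, is a known target of its members.

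The mature guide arms are shown because their seeds are where the members are alike and where they differ. They are from RefSeq (GRCh38.p14), are written 5′ to 3′, and have bases 2 to 8 in capitals.
hsa-miR-183-5p: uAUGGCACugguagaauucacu
hsa-miR-96-5p: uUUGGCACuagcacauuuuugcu
hsa-miR-182-5p: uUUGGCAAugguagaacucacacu
On the minus strand of GRCh38.p14, hsa-miR-183-5p (gene MIR183) lies at chr7:129774967-129774988, hsa-miR-96-5p (MIR96) at chr7:129774739-129774761 and hsa-miR-182-5p (MIR182) at chr7:129770447-129770470. In the direction of transcription, 205 bases separate miR-183-5p from miR-96-5p, and 4268 bases separate miR-96-5p from miR-182-5p. Counted from the 5′ end, the seed of miR-183-5p differed from that of miR-96-5p by A2U and from that of miR-182-5p by A2U and C8A, and the seeds of miR-96-5p and miR-182-5p differed by C8A. Outside the seed the relation was another one. Aligned from the first base without gaps, miR-183-5p and miR-182-5p had the same base at 13 of the 15 other positions, miR-183-5p and miR-96-5p at 7 of 15, and miR-96-5p and miR-182-5p at 6 of 16.

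The scanner software detected all 3 guide arms on all 8 arrays. It detected between 395 and 481 miRNAs per array, and 365 miRNAs on every array. Of 6 epithelial markers, miR-200a-3p, miR-200b-3p and miR-429 were detected on all 8 arrays, miR-205-5p on 6, and miR-200c-3p and miR-141-3p on 0. Of 7 blood cell markers, 1 was detected, on 1 array. None of the 2 markers of stroma and smooth muscle, the 4 of striated muscle or the 1 of liver was detected. Of 2 neuronal markers, miR-124-3p was detected on 0 arrays and miR-9-5p on 8.

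Levels are given as the total signal of a miRNA in intensity units, scaled so that each array had the same 75th percentile over the 365 miRNAs detected everywhere. Since probes differ in brightness, a level of 1 miRNA was not set against that of another. The study's methods describe a fixed amount of total RNA labelled for each array. A level is thus relative to the other miRNAs on its array and shows neither the number of cells nor the RNA per cell.

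The signal of miR-183-5p was 29.5 and 52.0 on the 2 DMSO arrays, 33.7 and 65.9 with luteolin, 51.4 and 57.8 with gefitinib, and 41.6 and 74.8 with both drugs. The group means rose in that order, from 40.8 ± 15.9 (SD, n = 2) through 49.8 ± 22.8 and 54.6 ± 4.55 to 58.2 ± 23.5. The arrays of each treatment overlapped with those of every other, and no neighbors in this order differed beyond their spread.

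The signal of miR-96-5p was 231 and 404 in DMSO cultures, 217 and 411 in luteolin cultures, 432 and 477 in gefitinib cultures, and 259 and 344 in cultures given both drugs. Both gefitinib arrays lay above the other 6 arrays, as they did for 10.2% of all miRNAs tested, and the arrays of the double treatment lay between the 2 DMSO arrays. The group means were 302 ± 60.2 (SD, n = 2) with both drugs, 314 ± 137 with luteolin, 317 ± 122 with DMSO and 455 ± 31.7 with gefitinib. The first 3 of these means differed by less than the SD of any of the groups.

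The signal of miR-182-5p was 46.8 and 64.0 on the DMSO arrays, 54.3 and 77.7 on the luteolin arrays, 68.2 and 74.8 on the gefitinib arrays, and 53.0 and 56.4 on those of the double treatment. The gefitinib arrays again lay above both DMSO arrays, but not above the second luteolin array. The group means were 54.7 ± 2.39 (SD, n = 2) with both drugs, 55.4 ± 12.2 with DMSO, 66.0 ± 16.6 with luteolin and 71.5 ± 4.70 with gefitinib.

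**Figure D1:**
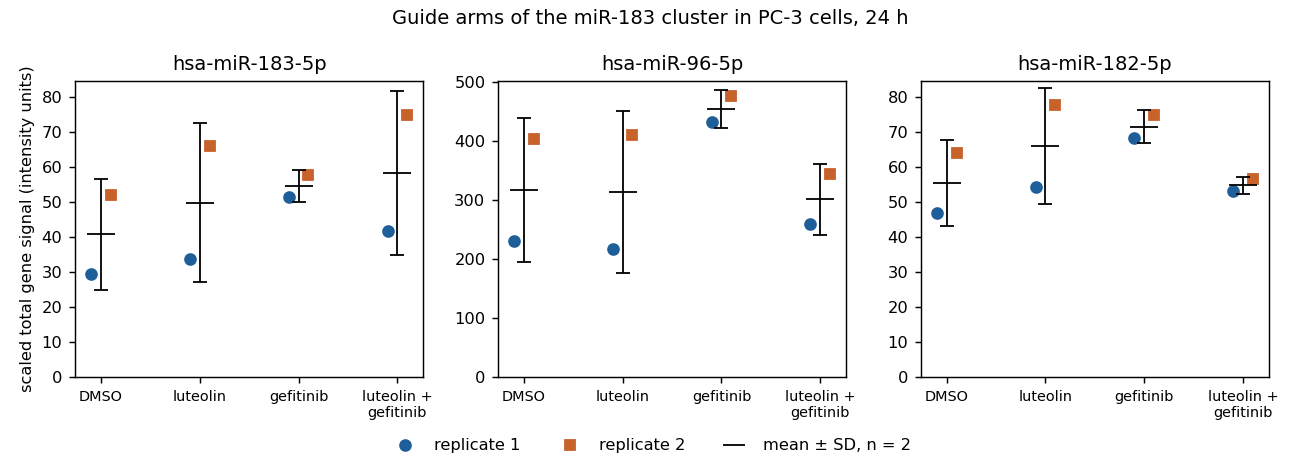
Scaled total signal (intensity units, each axis from 0) of the 3 guide arms on each array, by treatment. Circles are replicate 1, squares replicate 2, and bars the mean ± SD (n = 2). Replicate 2 lies above replicate 1 in all 12 pairs, and the gefitinib pairs are close together, as for miR-96-5p at 432 and 477.

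The mean levels of all 3 guide arms were higher with gefitinib than with DMSO, but none of these differences passed the test. The difference of miR-96-5p was 0.57 on the log2 scale (SE 0.40, 95% interval -0.43 to 1.57, limma adjusted p = 0.495), which is 1.49-fold. That of miR-183-5p was 0.48 (SE 0.47, interval -0.69 to 1.64, adjusted p = 0.638). That of miR-182-5p was 0.38 (SE 0.24, interval -0.21 to 0.98, adjusted p = 0.456), the lowest adjusted p of any guide arm in any comparison. Thus 0 of 3 guide arms were called, against 12.1% of the 480 miRNAs tested (adjusted p under 0.05 in either direction). Both gefitinib arrays exceeded both DMSO arrays for miR-96-5p and miR-182-5p, as they did for 21.5% of all miRNAs tested, and for miR-183-5p they did not. The median difference over all miRNAs tested was -0.10.

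Without the first DMSO array, on which all 3 guide arms were lowest or next to lowest, the differences between gefitinib and DMSO came to 0.07 for miR-183-5p, 0.17 for miR-96-5p and 0.16 for miR-182-5p. Without the second DMSO array they were 0.88, 0.97 and 0.61. The size of each difference thus turned on which of the 2 DMSO arrays served as the control.

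Luteolin alone gave small differences of both signs. Relative to DMSO, miR-183-5p differed by 0.27 (SE 0.47, interval -0.90 to 1.43, adjusted p = 0.958), miR-182-5p by 0.25 (SE 0.24, interval -0.35 to 0.84, adjusted p = 0.901) and miR-96-5p by -0.03 (SE 0.40, interval -1.03 to 0.97, adjusted p = 1). In this comparison 0 of 3 guide arms were called, against 2.08% of all miRNAs tested. The luteolin and DMSO arrays overlapped for every guide arm.

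With both drugs again no guide arm was called, against 12.1% of all miRNAs tested. Relative to DMSO, miR-183-5p differed by 0.51 (SE 0.47, interval -0.66 to 1.68, adjusted p = 0.555), while miR-96-5p differed by -0.03 (interval -1.03 to 0.97, adjusted p = 0.986) and miR-182-5p by -0.00059 (interval -0.60 to 0.59, adjusted p = 1). The difference of miR-183-5p was 0.10 without DMSO replicate 1 and 0.92 without DMSO replicate 2, and it was 0.93 and 0.087 without replicate 1 and 2 of the double treatment. The 3 comparisons with DMSO share the same 2 control arrays.

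The addition of luteolin to gefitinib left miR-183-5p at nearly the same mean, with a difference of 0.03 (SE 0.47, interval -1.13 to 1.20, adjusted p = 1). It gave lower means of the other two, -0.60 for miR-96-5p (SE 0.40, interval -1.60 to 0.40, adjusted p = 0.712) and -0.38 for miR-182-5p (SE 0.24, interval -0.98 to 0.21, adjusted p = 0.684). For miR-96-5p and miR-182-5p both arrays of the double treatment lay below both gefitinib arrays, as was the case for 32.3% of all miRNAs tested. None of the 3 guide arms was called, against 4.58% of all miRNAs tested. The addition of gefitinib to luteolin gave 0.24 for miR-183-5p (adjusted p = 1), 0.00032 for miR-96-5p (adjusted p = 1) and -0.25 for miR-182-5p (adjusted p = 0.748), and 0 of 3 calls against 1.88%.

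The interaction asks whether the double treatment differed from the sum of the 2 single differences. It was negative for all 3 guide arms, at -0.63 for miR-182-5p (SE 0.34, interval -1.47 to 0.21, adjusted p = 0.674), -0.57 for miR-96-5p (SE 0.57, adjusted p = 0.986) and -0.23 for miR-183-5p (SE 0.66, adjusted p = 0.986). With 1 array left out, that of miR-183-5p turned to 0.18 without DMSO replicate 1, 0.19 without replicate 1 of the double treatment and 0.25 without luteolin replicate 2, and that of miR-96-5p ranged from -1.03 without luteolin replicate 1 to -0.11 without luteolin replicate 2. The unadjusted p of 0.115 for miR-182-5p was the lowest of the 24 results of the guide arms. None was called, against 3.33% of all miRNAs tested.

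Averaged over the presence and absence of the other drug, 4 arrays against 4, gefitinib gave 0.36 for miR-183-5p (adjusted p = 0.570), 0.29 for miR-96-5p (adjusted p = 0.600) and 0.07 for miR-182-5p (adjusted p = 0.859), and 16.7% of all miRNAs tested were called. Luteolin gave 0.15 (adjusted p = 0.903), -0.32 (adjusted p = 0.689) and -0.07 (adjusted p = 0.914) in the same order, and 6.46% of all miRNAs tested were called. No guide arm was among them. With 1 array left out, the gefitinib effect ranged from 0.12 to 0.60 for miR-183-5p and from 0.055 to 0.52 for miR-96-5p, and the luteolin effect of miR-96-5p from -0.55 to -0.088, each range being set by the 2 luteolin arrays.

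Over the 8 comparisons, 0 of 24 results of the guide arms were called and 0 had an unadjusted limma p under 0.05. Over all miRNAs tested the share with an unadjusted p under 0.05 was 8.54% for luteolin, 23.8% for gefitinib and 25.8% for the double treatment against DMSO, 15.4% and 12.5% for the double treatment against luteolin and gefitinib, 10.2% for the interaction, and 26.7% and 14.6% for the mean effects of gefitinib and luteolin. The precision differed between the members. In a comparison of 2 groups the 95% interval reached 1.17 log2 units to either side for miR-183-5p, 1.0 for miR-96-5p and 0.60 for miR-182-5p.

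**Figure D2:**
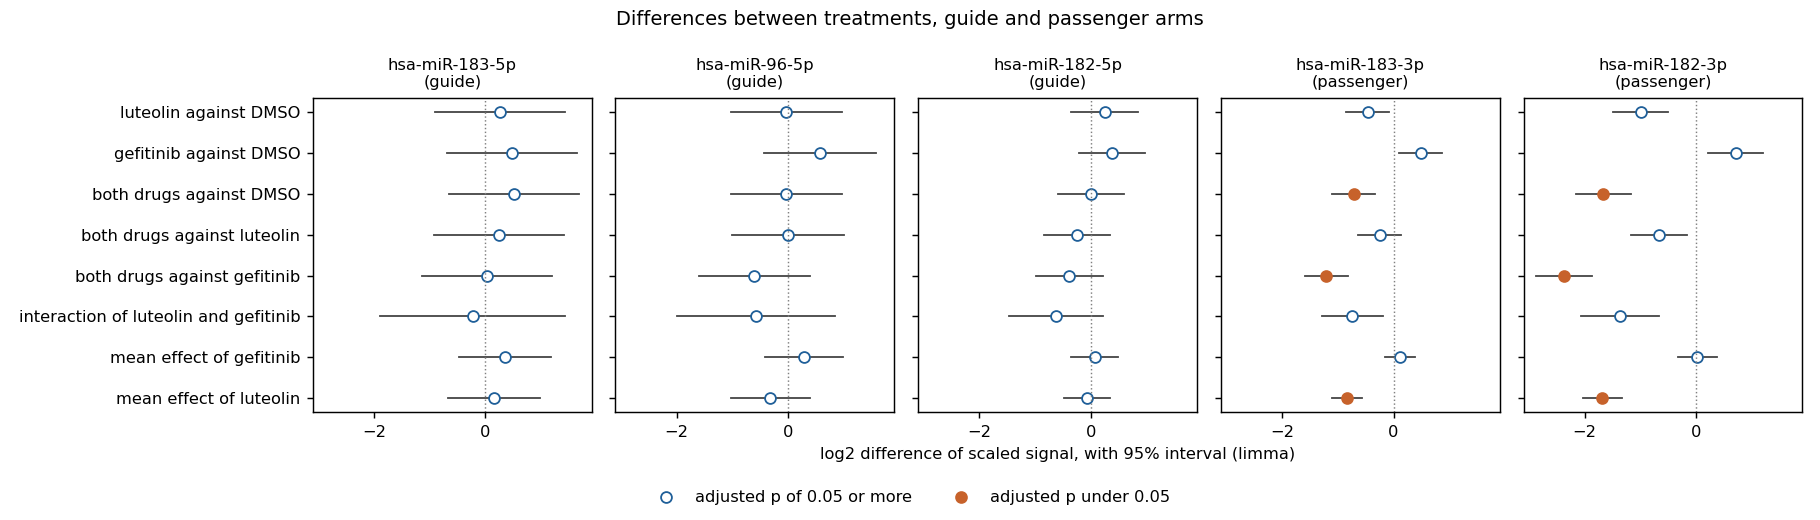
Log2 differences between treatments (points) with 95% intervals from limma (lines) for the 3 guide arms and the 2 detected passenger arms, with 1 row for each of 8 comparisons. Filled points have an adjusted p under 0.05. All 24 intervals of the guide arms cross 0, and the 6 filled points belong to miR-183-3p and miR-182-3p in comparisons with luteolin.

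The spread within treatments was nearly all of 1 sign. Replicate 2 was higher than replicate 1 for each guide arm in each treatment, 12 of 12 pairs, as it was in all 4 treatments for 27.7% of the 365 miRNAs detected everywhere. For miR-183-5p replicate 2 exceeded replicate 1 by 0.82 log2 units in DMSO, 0.97 in luteolin, 0.17 in gefitinib and 0.85 in the double treatment. For miR-96-5p these gaps were 0.80, 0.92, 0.14 and 0.41, and for miR-182-5p 0.45, 0.52, 0.13 and 0.09. The gaps with DMSO and luteolin were thus as large as any difference between treatments. All 8 arrays lay on 1 slide and were read in 1 scan, with the replicate 1 arrays in row 1 and the replicate 2 arrays in row 2, so that culture and slide row cannot be told apart.

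The gaps can be set beside the error within an array. The software gave the total signal of a guide arm an error of 5.6% to 7.2%. The median coefficient of variation among repeated spots of a probe was 8.06% for miR-183-5p, 7.04% for miR-96-5p and 6.25% for miR-182-5p, while the replicates of miR-183-5p differed by up to 1.96-fold. The replicates of miR-182-5p with both drugs differed by 1.06-fold, no more than that error.

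Each guide arm was read by several probes with repeated spots, and most differences were of 1 sign over the probes of a guide arm. For miR-183-5p, 237 of 240 spots over the 8 arrays were well above background, and for miR-96-5p 240 of 240. For miR-182-5p it was 176 of 240, since 1 of its 4 probes was well above background at 0 of 64 spots. In gefitinib against DMSO the 4 probes of miR-183-5p gave 0.46 to 0.51, the 2 probes of miR-96-5p 0.55 to 0.59 and the other 3 probes of miR-182-5p 0.34 to 0.42, all of 1 sign. In the double treatment against gefitinib the probes of miR-96-5p gave -0.62 to -0.59 and those of miR-182-5p -0.47 to -0.28, while those of miR-183-5p had both signs, -0.11 to 0.07. In the double treatment against luteolin those of miR-96-5p had both signs, -0.016 to 0.021. In the double treatment against DMSO the probes of miR-182-5p had both signs, -0.06 to 0.07. Probes of 1 miRNA read the same RNA on the same array and are not replicates of a treatment.

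**Figure D3:**
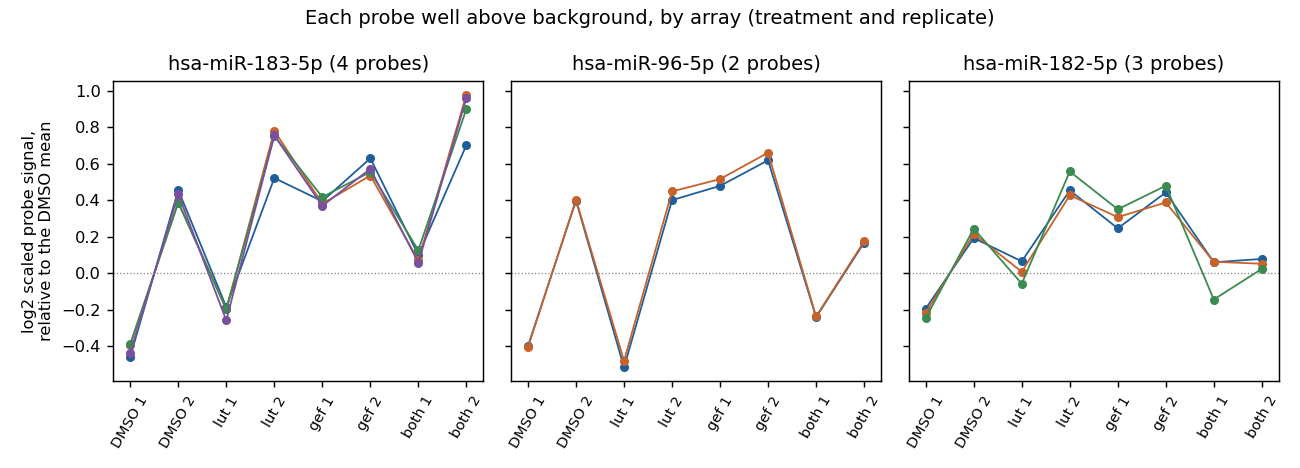
Log2 scaled signal of each probe relative to its own mean over the 2 DMSO arrays, on each of the 8 arrays, for the 3 guide arms. Each line is a probe, with repeated spots averaged, and the probe of miR-182-5p that was not well above background is left out. The lines of a panel lie close together on nearly every array, and the step from replicate 1 to replicate 2 of DMSO appears on every probe.

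Over the 8 arrays the log2 level had an SD of 0.464 for miR-183-5p, 0.443 for miR-96-5p and 0.258 for miR-182-5p. The log2 ratio of miR-96-5p to miR-182-5p had an SD of 0.244, that of miR-183-5p to miR-96-5p 0.294 and that of miR-183-5p to miR-182-5p 0.338, where the median SD over all 66430 pairs of the 365 miRNAs was 0.439. The ratio of miR-183-5p to miR-182-5p thus varied more than the level of miR-182-5p did. The ratio of miR-183-5p to miR-96-5p differed from its DMSO mean by 0.30 ± 0.03 (SD, n = 2) with luteolin, -0.10 ± 0.02 with gefitinib and 0.54 ± 0.31 with both drugs. It was thus higher on all 4 arrays with luteolin than on the 4 without. Such a separation, in either direction, was found for 6.22% of the 66430 pairs, and these ratios were not tested. The ratio of miR-183-5p to miR-182-5p differed by 0.51 ± 0.54 with both drugs, no more than its spread.

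Each member was also set beside the other 364 miRNAs detected on all arrays, by the root mean square difference of their log2 profiles over the 8 arrays after each profile was centered on its mean. The nearest to miR-183-5p were miR-9-5p at 0.222, let-7a-5p at 0.242 and let-7e-5p at 0.242, where the median was 0.491. The nearest to miR-96-5p were miR-362-3p at 0.167, miR-9-5p at 0.168 and miR-195-5p at 0.209, with a median of 0.492. The nearest to miR-182-5p were miR-3651 at 0.104, miR-30b-5p at 0.119 and miR-361-3p at 0.131, with a median of 0.362. The members were not each other's closest profiles. Among the 364, miR-182-5p ranked 5 and miR-183-5p ranked 20 by nearness to miR-96-5p, and miR-96-5p ranked 12 and miR-182-5p ranked 27 by nearness to miR-183-5p. From miR-182-5p, the flattest of the 3, miR-96-5p ranked 73 and miR-183-5p ranked 146.

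The array also held all 3 passenger arms of the same hairpins. miR-183-3p and miR-182-3p were detected on all 8 arrays, and miR-96-3p on 0 of 8, with 0 of 240 spots well above background. Their mature sequences are shown because each shares its hairpin, and so its primary transcript, with a guide arm.
hsa-miR-183-3p: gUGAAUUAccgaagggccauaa
hsa-miR-182-3p: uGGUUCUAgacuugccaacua
Their capitals mark bases 2 to 8, and they lie at chr7:129774928-129774949 and chr7:129770406-129770426 of GRCh38.p14, on the minus strand.

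The signal of miR-182-3p was 7.37 and 8.32 on the DMSO arrays, 4.64 and 3.31 on the luteolin arrays, 12.9 and 12.6 on the gefitinib arrays, and 2.32 and 2.62 on those of the double treatment. The signal of miR-183-3p was 19.1 and 23.4 for DMSO, 14.4 and 16.2 for luteolin, 28.9 and 30.4 for gefitinib, and 12.7 and 13.0 for both drugs. The 4 treatments did not overlap for either passenger arm, and their order was the same, from the double treatment through luteolin and DMSO to gefitinib. No overlap between any of the treatments, in whatever order, was found for 6.04% of all miRNAs tested.

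In the double treatment against DMSO, miR-182-3p fell by 1.67 on the log2 scale (SE 0.20, limma adjusted p = 0.00709) and miR-183-3p fell by 0.72 (SE 0.16, adjusted p = 0.0383), where 6.04% of all miRNAs tested were called lower. Against gefitinib alone, miR-182-3p fell by 2.37 (adjusted p = 0.00305) and miR-183-3p fell by 1.21 (adjusted p = 0.0101), where 3.54% were called lower. Averaged over both backgrounds, arrays with luteolin differed from those without by -1.69 log2 units for miR-182-3p (interval -2.04 to -1.33, adjusted p = 0.00308) and by -0.84 for miR-183-3p (interval -1.11 to -0.56, adjusted p = 0.0123), where 5.42% were called lower. The double treatment against luteolin gave -0.67 for miR-182-3p (adjusted p = 0.202) and -0.25 for miR-183-3p (adjusted p = 0.518). The former was called with the mean processed signal (0.0437) and the series table (0.0434). The interaction was -1.37 (adjusted p = 0.0814) and -0.74 (adjusted p = 0.273), not called in the main fit. Luteolin alone against DMSO gave -1.0 for miR-182-3p (adjusted p = 0.0939) and -0.47 for miR-183-3p (adjusted p = 0.408). Gefitinib alone gave 0.70 (adjusted p = 0.0892) and 0.49 (adjusted p = 0.115), and these 4 differences did not pass the test. In some settings they did, except for the luteolin difference of miR-183-3p, which was called in no setting. The gefitinib differences were called for miR-182-3p and miR-183-3p with scaling to control probes (adjusted p of 0.0155 and 0.0132), with normexp followed by quantile normalization (0.0364 and 0.0490) and with log2 of the signal plus 16 (0.0249 and 0.0494), and for miR-182-3p without either luteolin array (0.0359 each). The luteolin difference of miR-182-3p was called with the mean processed signal (0.0490), with the series table (0.0493) and without luteolin replicate 1 (0.0301).

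The calls of miR-183-3p were less steady than those of miR-182-3p. Of 25 alternative settings, 14 ended the call of miR-183-3p against DMSO and 7 that against gefitinib, among them quantile normalization, with adjusted p of 0.138 and 0.0738. Its call for luteolin on average ended in 6 of 23 settings. The call of miR-182-3p against DMSO ended in 3 settings, with no filter (adjusted p = 0.0774), without DMSO replicate 2 (0.0639) and in the methods' t-test (0.104), and its calls against gefitinib and for luteolin on average held in all. The sizes moved further. With scaling to control probes the double treatment differed from DMSO by -1.23 for miR-182-3p (limma adjusted p = 0.0100). For miR-183-3p that difference was -0.28 (adjusted p = 0.260). With normexp followed by quantile normalization the double treatment differed from DMSO by -0.19 for each passenger arm, and from gefitinib by -0.31 for miR-182-3p and -0.36 for miR-183-3p. With log2 of the signal plus 16 the difference from DMSO was -0.37 for each passenger arm. The normexp setting and this one add a constant to the signal before log2, which by itself makes log2 differences of dim miRNAs smaller.

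The signal was low: 115 of 240 spots of miR-182-3p and 162 of 240 of miR-183-3p were well above background. The total signal of miR-182-3p summed 1 of its 4 probes on both arrays of the double treatment and on luteolin replicate 2, 2 probes on luteolin replicate 1 and the DMSO arrays, and 3 or 4 on the gefitinib arrays, so its fold changes hold probes that entered or left the sum. The 1 probe that was well above background at every spot gave 5.48 and 5.93 for DMSO, 3.56 and 3.31 for luteolin, 8.59 and 7.96 for gefitinib, and 2.32 and 2.62 for both drugs. With this probe alone, a setting chosen after the values were seen, miR-182-3p fell by 1.21 against DMSO (limma adjusted p = 0.00565), by 1.75 against gefitinib (adjusted p = 0.00301) and by 1.24 for luteolin on average (adjusted p = 0.00283). The 2 such probes of miR-183-3p gave -0.62 against DMSO (adjusted p = 0.0688), -1.12 against gefitinib (adjusted p = 0.0171) and -0.78 for luteolin on average (adjusted p = 0.0177).

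Since the guide arm and the passenger arm of a hairpin leave the same precursor, their ratio was followed on each array, a comparison chosen after the values were seen. Scaling between arrays cancels in this ratio. Relative to its DMSO mean, the ratio of miR-182-5p to miR-182-3p was 0.91-fold and 1.10-fold on the DMSO arrays, 0.76-fold and 0.85-fold with gefitinib, 1.67-fold and 3.36-fold with luteolin, and 3.27-fold and 3.08-fold with both drugs. The ratio of miR-183-5p to miR-183-3p was 0.83-fold and 1.20-fold with DMSO, 0.96-fold and 1.02-fold with gefitinib, 1.26-fold and 2.19-fold with luteolin, and 1.77-fold and 3.09-fold with both drugs. In both hairpins all 4 arrays with luteolin lay above all 4 without it, although for miR-183 the lowest of the first, 1.26-fold, was close to the highest of the second, 1.20-fold. A ratio separated these arrays in either direction for 6.22% of the 66430 pairs of miRNAs.

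Between the arrays with and without luteolin the guide-to-passenger ratio differed by 1.62 log2 units, or 3.07-fold, for miR-182 and by 0.99, or 1.98-fold, for miR-183. Since the ratio was chosen after the values were seen, these differences are a description and no test is given. Between the arrays with and without gefitinib the ratio differed by 0.05 for miR-182 and by 0.24 for miR-183. With normexp background correction followed by quantile normalization the luteolin differences were 0.19 for miR-182 and 0.33 for miR-183. With log2 of the signal plus 16 they were 0.39 and 0.57. Both settings add a constant to the signal before log2, which by itself makes the log2 differences of dim miRNAs smaller. In both of these settings the arrays with and without luteolin overlapped for miR-183, and they did not for miR-182. Over the probes well above background at every spot they were 1.17 for miR-182 and 0.94 for miR-183.

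**Figure D4:**
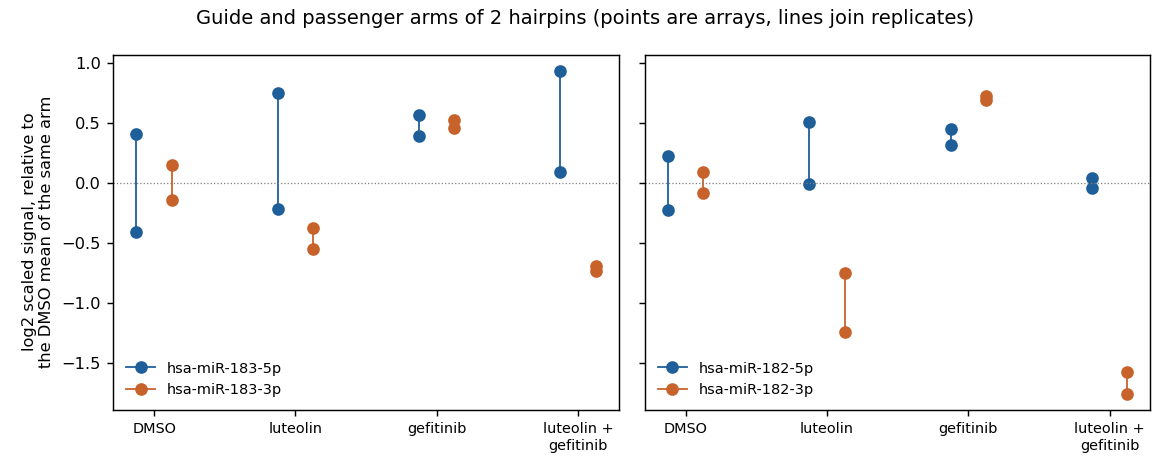
Log2 scaled signal of guide arms (blue) and passenger arms (orange) of the miR-183 and miR-182 hairpins relative to the DMSO mean of the same arm, by treatment. Points are arrays and lines join the 2 replicates. With luteolin, alone or with gefitinib, the passenger arms lie below their DMSO mean on every array, down to a mean of -1.67 for miR-182-3p, and with gefitinib alone both arms lie above it.

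Bases 2 to 8 of miR-96-5p occurred in 1 other miRNA on the array, of the 1578 of 1887 that could be matched to a RefSeq sequence. This was miR-1271-5p, which is encoded apart from the cluster, on chromosome 5.
hsa-miR-1271-5p: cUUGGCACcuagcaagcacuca
It was detected on 0 of 8 arrays, with 0 of 240 spots well above background. Among the same 1578 matched miRNAs, the seeds of miR-183-5p and miR-182-5p occurred in 0 others. Bases 2 to 7 were shared by miR-96-5p, miR-182-5p and miR-1271-5p.

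The guide arms of another polycistron, the miR-17/92 cluster, which promotes proliferation in many tumors, were all detected, and none of the 6 was called in any of the 8 comparisons, where between 1.88% and 16.7% of all miRNAs tested were called. Their median difference between gefitinib and DMSO was -0.41 (range -0.56 to -0.34), where the 3 members of the miR-183/96/182 cluster gave 0.38 to 0.57, and neither set was called. For the guide arms of the miR-200 family, which keeps epithelial cells in their epithelial state, 3 of 5 were detected, and none was called against the same shares. Their median difference was -0.14 with gefitinib, -0.02 with luteolin and -0.05 with both drugs.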

How the data were processed

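Total RNA of PC-3 cells was labelled with Cy3 and hybridised to 1-colour Agilent miRNA arrays, 2 per treatment. The authors extracted each array with the scanner software (Agilent Feature Extraction 10.7.3.1, per the file headers), and the deposited values are background-subtracted signal intensity on a linear scale, with no normalization between arrays. The software gives a total signal per miRNA over its spots (56610 spots for 1887 miRNAs, 0 saturated). The spot values of the deposited series table were within 0.5% of the processed signal for 100% of spots, and that table was used as an alternative.

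Samples were grouped by the treatment in the labels, and none was left out. The total signal was divided by the 75th percentile of each array (60.5 to 92.7) over the 365 miRNAs detected on all 8 arrays and multiplied by the geometric mean of the percentiles. Values under 0.609, the median of the lowest detected signals of the 8 arrays, were set to that value before log2. The 480 miRNAs that both arrays of any treatment detected were fitted in 1 model of 4 groups with limma 3.58.1 in R 4.3.3 (4 residual degrees of freedom, prior 1.66). Two-sided p-values received a Benjamini-Hochberg adjustment across those 480, and an adjusted p under 0.05 was called. Scripts were tested on simulated data. p-values measure the spread between these arrays, and the small number of arrays limits the precision. Python 3.11.15 with pandas 2.3.3, numpy 2.4.6 and matplotlib 3.10.9 was used for sequences, ratios and plots.

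The members and lists were chosen with earlier results of these data known. Named miRNAs were the 3 guide arms, their passenger arms, miRNAs with the same seed, and the 3 nearest profiles of each member. Alternatives changed the scaling, spot summary, background correction, filter, floor, test and replicates. Leaving out spots with an outlier flag, the restriction to probes well above background on every array, and all alternatives for the passenger arms and ratios, were added after seeing the data.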

Additional observations from a re-analysis of the deposited data

How the results depend on the processing

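For the guide arms, 24 results gave 582 values under the alternatives. Of these, 0 passed the threshold, 535 kept the direction and 47 changed sign. The causes of the sign changes were not tested. Gefitinib against DMSO kept its sign for all 3 guide arms in every alternative run, as did the double treatment against gefitinib for miR-96-5p and miR-182-5p.

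Luteolin against DMSO for miR-96-5p became 0.12 with no scaling and 0.073 with scaling to human small-RNA control probes. With control probes the double treatment against DMSO became 0.41 for miR-96-5p and 0.44 for miR-182-5p, the latter also 0.027 with no scaling, 0.011 with median scaling and 0.00044 without outlier spots. Against luteolin, the double treatment gave for miR-96-5p -0.12 with no scaling, -0.15 with quantile normalization, -0.0047 with median scaling, -0.055 with the mean processed signal, -0.054 with the series table, -0.025 with normexp and -0.0026 with log2 of the signal plus 16. With control probes it gave 0.086 for miR-182-5p and 0.082 for miR-183-3p. Against gefitinib, miR-183-5p gave -0.30 with no scaling and -0.019 without outlier spots. The mean effect of gefitinib on miR-182-5p was -0.013 with the mean processed signal, -0.013 with the series table and -0.017 with normexp, and on miR-182-3p -0.015 with median scaling, -0.14 with the mean processed signal, -0.14 with the series table and -0.064 without outlier spots. The mean effect of luteolin on miR-182-5p was 0.013 with control probes. The difference in the miR-182 guide-to-passenger ratio between arrays with and without gefitinib was -0.046 with normexp and -0.027 with log2 of the signal plus 16.

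With each array left out in turn, luteolin against DMSO ranged from -0.22 to 0.75 for miR-183-5p, -0.49 to 0.43 for miR-96-5p and -0.012 to 0.51 for miR-182-5p. The double treatment against DMSO ranged from 0.087 to 0.93 for miR-183-5p, -0.43 to 0.37 for miR-96-5p and -0.23 to 0.23 for miR-182-5p. Against luteolin it ranged from -0.24 to 0.73 for miR-183-5p, -0.46 to 0.46 for miR-96-5p and -0.51 to 0.012 for miR-182-5p, and against gefitinib from -0.39 to 0.46 for miR-183-5p, -0.81 to -0.40 for miR-96-5p and -0.45 to -0.32 for miR-182-5p. The interaction ranged from -0.72 to 0.25 for miR-183-5p, -1.03 to -0.11 for miR-96-5p and -0.89 to -0.37 for miR-182-5p. The mean effect of gefitinib ranged from 0.12 to 0.60 for miR-183-5p, 0.055 to 0.52 for miR-96-5p, -0.061 to 0.20 for miR-182-5p and -0.10 to 0.14 for miR-182-3p, and that of luteolin from -0.092 to 0.39 for miR-183-5p, -0.55 to -0.088 for miR-96-5p and -0.20 to 0.060 for miR-182-5p. The gefitinib difference in the guide-to-passenger ratio ranged from -0.10 to 0.49 for miR-183 and -0.30 to 0.43 for miR-182. The luteolin difference ranged from 0.77 to 1.20 and from 1.52 to 1.85. A group with 1 array left was assumed to vary like the others.

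Over 365 miRNAs, same-numbered arrays deviated together in DMSO and luteolin (r = 0.91). They did so less in luteolin and the double treatment (0.46) and in DMSO and the double treatment (0.41). Between gefitinib and DMSO, luteolin or the double treatment, r was -0.13, -0.09 and 0.07. Since not every pair of treatments shared the deviations, the number was not taken as a pairing. Without a block, the shift from replicate 1 to replicate 2 is part of the spread behind the limma intervals and p-values. With the replicate number as a block, no guide arm was called. The double treatment against gefitinib had an unadjusted p of 0.0495 for miR-96-5p (difference -0.60, adjusted p = 0.313), and the interaction of miR-182-5p one of 0.0433 (-0.63, adjusted p = 0.335). For gefitinib against DMSO the unadjusted limma p with the block was 0.0586 for miR-96-5p, 0.0677 for miR-182-5p and 0.0973 for miR-183-5p. The adjusted p was 0.193, 0.210 and 0.268 in the same order. The block ended no call of a passenger arm.

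The calls over all miRNAs tested moved more. Against DMSO they ranged from 0 to 18 for luteolin (10 as reported), 14 to 73 for gefitinib (58) and 12 to 101 for both drugs (58). They ranged from 0 to 41 for both drugs against luteolin (9), 7 to 41 against gefitinib (22), 2 to 24 for the interaction (16), 22 to 112 for the mean effect of gefitinib (80) and 5 to 37 for that of luteolin (31). The counts as reported are out of 480 miRNAs. The count of 12 for both drugs against DMSO came from a fit with no filter, out of 1887. The count of 7 against gefitinib was out of the 365 miRNAs detected on all 8 arrays. The counts of 0 came from limma fitted to only the groups compared, among other settings, where 30 and 44 miRNAs had an unadjusted p under 0.05. Scaling to the 75th percentile over all miRNAs was not run, since that percentile was at the value of an undetected miRNA on 5 arrays.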
